A study of Oryza sativa with 3 samples.

Results

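The regions described here are the anti-Flag ChIP-seq peaks that lie at GRF4 and at DEP1, the genes behind the names of the rice line that was studied. ChIP-seq sequences the DNA pulled down with a protein by an antibody, and a peak is a stretch that the authors' peak caller listed as enriched. Every peak that overlapped a 20 kb window around GRF4 (LOC_Os02g47280, chromosome 2) or around DEP1 (LOC_Os09g26999, chromosome 9) was taken, wherever its score stood. The members were thus chosen by position, but the genes were selected on listed peaks and scores already known to lie there. This gave 18 of the 1499 listed regions, 11 at GRF4 and 7 at DEP1, with 5 of 440 in replicate 1, 6 of 620 in replicate 2 and 7 of 439 in replicate 3.

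All 3 samples were 2-week-old rice seedlings of the genotype WYJ7-dep1-1/p35S::Flag-ngr2. They carried the dep1-1 allele in the WYJ7 background and a Flag-tagged ngr2 transgene under the 35S promoter, which is active in most plant tissues. They formed 1 group, and no input, untagged or wild-type library was among the samples analysed here. The labels state neither separate plants, the number of transgenic lines, nor whether the transgene holds the genomic or the spliced sequence of the gene. The spread between samples may therefore be technical.

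As background, GRF4 encodes a growth-regulating factor, a plant transcription factor that binds DNA and works with GIF coactivators. Its transcript is a target of the microRNA miR396, and the transgene carries the ngr2 allele of this gene. DEP1 encodes a gamma subunit of the heterotrimeric G protein, which relays signals from the plasma membrane, and the gene is known for its part in panicle shape and nitrogen response. The dep1-1 allele encodes a shortened form of that subunit. The tagged protein is thus a product of the first gene, and the second is the locus whose altered allele marks the background of all 3 samples.

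The windows were placed by positions in the MSU annotation of the rice genome. Which build the lists use was not stated in the labels or the lists. Their sequence names include ChrUn and ChrSy, names that the MSU pseudomolecules also use. No annotation of that build was used, so a peak is placed in its window and not on an exon, an intron or a promoter, and the gene labels were not checked against an annotation. In the RefSeq gene table, which is of another assembly, BRXL2 and VTE4 (a tocopherol methyltransferase) are the genes on either side of GRF4. DEP1 is not named in that table. Positions are 1-based, in the numbering of the lists.

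The peaks at GRF4 fell into 3 separate blocks that were listed in every sample, and a block with a low score, the fourth, that was listed in replicate 3. A block is a set of regions of different samples that overlap by at least 1 bp. The peaks at DEP1 fell into 2 blocks, both listed in every sample. Thus 5 of the 6 blocks were held by all 3 samples, where 23.3% of all 853 merged regions were. The windows were chosen with these lists known, so nothing is read from that difference and none of the values below was tested.

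**Figure D1:**
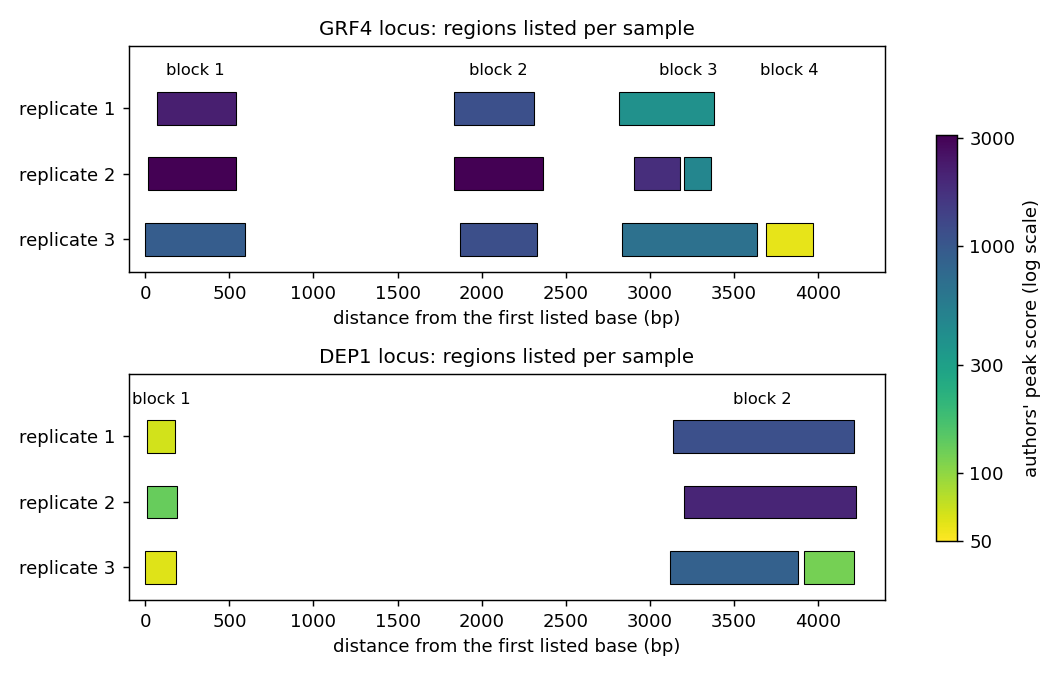
Regions listed at the GRF4 locus (top) and the DEP1 locus (bottom) in each of the 3 samples, against the distance in bp from the first listed base, coloured by the authors' peak score on a log scale. Each box is 1 listed region. GRF4 shows 3 blocks in each sample and 1 more in replicate 3, and DEP1 shows a short block and a long block in each sample, the long one with the higher score.

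The first GRF4 block held 1 region in each list. It ran from 28863632 to 28864104 in replicate 1 (473 bp), from 28863580 to 28864102 in replicate 2 (523 bp) and from 28863564 to 28864154 in replicate 3 (591 bp). The starts lay within 68 bp and the ends within 52 bp of each other. The scores were 2182 in replicate 1, 3100 in replicate 2 and 933 in replicate 3. A score of 3100 is the value at which the scores of every list stop, so the region of replicate 2 was 1 of 10 regions tied for first place. It ranked 6 of 440 in replicate 1 and 17 of 439 in replicate 3.

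The second GRF4 block also held 1 region in each list. It ran from 28865402 to 28865872 in replicate 1 (471 bp), from 28865398 to 28865925 in replicate 2 (528 bp) and from 28865433 to 28865891 in replicate 3 (459 bp). The starts lay within 35 bp and the ends within 53 bp. The scores were 1136 in replicate 1, 3100 in replicate 2 and 1150 in replicate 3. These stood at ranks 14, 1 (tied with the first block at the upper limit) and 12, so the block was near the top of each list.

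The third GRF4 block was the least alike between samples. It ran from 28866383 to 28866942 in replicate 1 (560 bp) and from 28866399 to 28867198 in replicate 3 (800 bp). In replicate 2 it was split into a region from 28866472 to 28866743 (272 bp) and a region from 28866765 to 28866927 (163 bp), 21 bp apart. The right end in replicate 3 lay 271 bp beyond that of replicate 2, the widest spread of an end among the 5 shared blocks. The best scores were 391 in replicate 1, 1809 in replicate 2 and 678 in replicate 3, at ranks 45, 17 and 26. The second region of replicate 2 had a score of 466 and rank 73.

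The fourth GRF4 block was listed in replicate 3 alone, from 28867255 to 28867531 (277 bp), 56 bp beyond the end of the third block. Its score of 58.0 was close to the lowest score of that list, 50.02, and it ranked 325 of 439. Depth is unknown, and a region that scores near the lower limit in 1 list cannot be called missing from the others. Replicate 3 is also the sample whose title does not name the Flag tag, although its other labels are those of the other samples.

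The same order of the 3 shared GRF4 blocks was not kept in all lists. The third block scored lowest of them in every sample. The first block stood above the second in replicate 1, was tied with it at the limit in replicate 2, and stood below it in replicate 3. The highest score was 5.58 times the score of the third block in replicate 1 and 1.69 times in replicate 3. It was 1.71 times in replicate 2, where the limit of 3100 makes the ratio a lower bound. Scores depend on depth and on the control, so they ranked regions within a list and were not compared between samples. The score has no stated unit, so a ratio of scores cannot be read as a fold of enrichment.

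**Figure D2:**
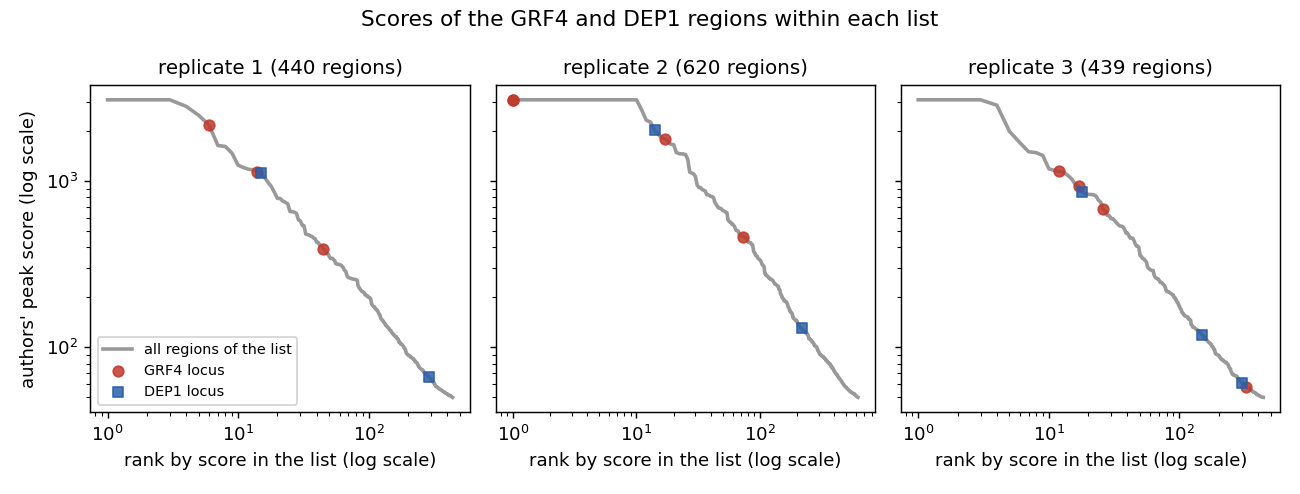
Authors' peak score against rank within the list, both on log scales, for all regions of each list (grey line) and for the regions at GRF4 (circles) and DEP1 (squares). The flat start of each line is the limit of 3100. In replicate 2 the first and second GRF4 blocks share a circle at that limit, and the short DEP1 block lies at rank 217 to 303 in the 3 lists.

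The first DEP1 block was short, and its limits were close to identical in the samples. It ran from 16411502 to 16411672 in replicate 1 (171 bp), from 16411503 to 16411682 in replicate 2 (180 bp) and from 16411494 to 16411675 in replicate 3 (182 bp). The starts lay within 9 bp and the ends within 10 bp. The scores were 66.4 in replicate 1, 130 in replicate 2 and 61.3 in replicate 3, at ranks 288 of 440, 217 of 620 and 303 of 439. It lay above the median score of its list in replicate 2 and below it in replicates 1 and 3.

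The second DEP1 block was the longest of the 6. It ran from 16414629 to 16415705 in replicate 1 (1077 bp) and from 16414696 to 16415716 in replicate 2 (1021 bp). In replicate 3 it was split into a region from 16414615 to 16415373 (759 bp) and a region from 16415408 to 16415706 (299 bp), with 34 bp between them. The starts lay within 81 bp and the ends within 11 bp. The best scores were 1127 in replicate 1, 2036 in replicate 2 and 868 in replicate 3, at ranks 15, 14 and 18. The right-hand region of replicate 3 had a score of 119 and rank 150, so the higher-scoring part of the split block lay on its left.

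Within DEP1 the second block stood above the first in each list, with a score 17.0 times as high in replicate 1, 15.6 times in replicate 2 and 14.2 times in replicate 3. These are ratios of a score without a stated unit, not folds of enrichment, and were not compared between samples. At GRF4, 8 of the 11 regions were above percentile 90 of their own list, 10 were above the median and 1 was not. At DEP1, 3 of the 7 regions were above percentile 90, 5 were above the median and 2 were not. The mean percentile of the best region of a block was 98.1 ± 1.59 for the first GRF4 block, 97.8 ± 1.20 for the second and 93.8 ± 3.74 for the third. It was 43.6 ± 18.7 for the first DEP1 block and 96.8 ± 0.913 for the second (SD, n = 3 each). The first DEP1 block is the shared block with the lowest place and the widest spread of percentiles.

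**Figure D3:**
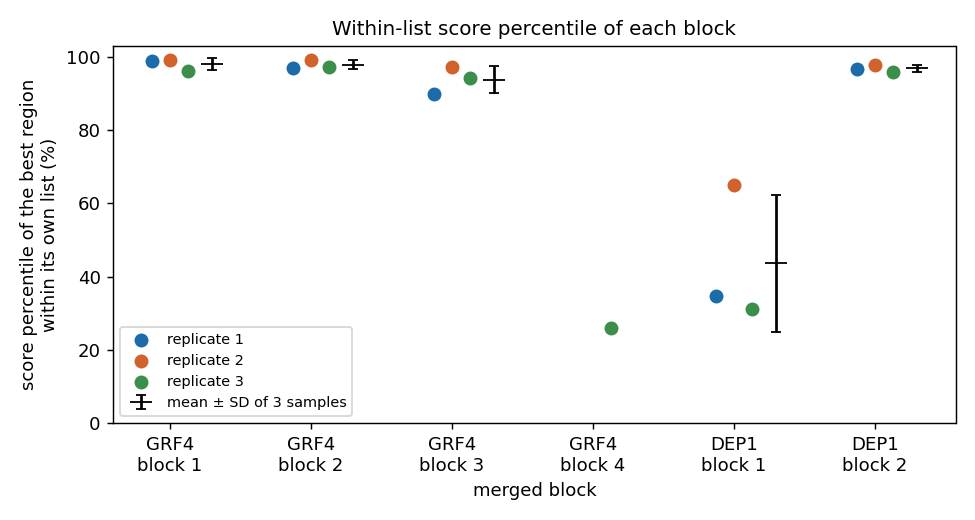
Score percentile within its own list (%) of the best region of each block, by sample, with the mean and SD over the 3 samples where all hold the block. The 3 shared GRF4 blocks and the second DEP1 block sit between 89.9 and 99.2, while the first DEP1 block spreads from 31.1 to 65.1 and the fourth GRF4 block is a single value of 26.1.

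The spacing of the blocks was similar in the 3 lists. The midpoints of the first and second GRF4 blocks lay 1798 ± 26.2 bp apart, those of the second and the third 1067 ± 60.8 bp, and those of the 2 DEP1 blocks 3590 ± 20.6 bp (SD, n = 3 each). Between the first and second GRF4 blocks, 1243 bp from 28864155 to 28865397 were listed in no sample, and between the second and the third 457 bp from 28865926 to 28866382. Between the DEP1 blocks, 2932 bp from 16411683 to 16414614 were listed in no sample. The GRF4 peaks are therefore interrupted by stretches that no list holds. Such a stretch lies at the same place in each sample by definition. Blocks were defined by overlap between samples, which also limits how far their spacing can differ.

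Together the GRF4 peaks covered 1504, 1486 and 2127 bp in replicates 1, 2 and 3, which is 1706 ± 365 bp (SD, n = 3). They filled 47.8 ± 5.05% (SD, n = 3) of the span from the first to the last listed base of the sample. The DEP1 peaks covered 1248, 1201 and 1240 bp in replicates 1, 2 and 3, or 1230 ± 25.1 bp, and filled 29.2 ± 0.624% of their span (SD, n = 3). The greater spread at GRF4 came with the greater length of the third block and with the fourth block in replicate 3. Without replicate 3 the GRF4 mean was 1495 bp. The 3 shared GRF4 blocks and the 2 DEP1 blocks are by definition also held by both other samples.

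Agreement in bases was higher at DEP1 than at GRF4 for each pair of samples when all listed regions were used. The Jaccard index, the bases listed in both samples over those listed in either, was lowest at DEP1 between replicates 2 and 3, at 0.891. It was 0.930 between replicates 1 and 2 and 0.953 between replicates 1 and 3. At GRF4 replicates 1 and 2 had an index of 0.854. With replicate 3 the index of replicate 1 was 0.670 and that of replicate 2 was 0.645. The means over the 3 pairs were 0.925 at DEP1, 0.723 at GRF4 and 0.598 over the whole lists. With only the regions above the median score of their list, the means were 0.838 ± 0.103 at DEP1 and 0.787 ± 0.0599 at GRF4 (SD over 3 pairs), a difference smaller than the spread between pairs. The pairs share samples and the difference was not tested.

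Block by block, the bases listed in all 3 samples were 471 bp of the first GRF4 block (28863632 to 28864102), or 79.7% of those listed in any. They were 440 bp of the second (28865433 to 28865872), or 83.3%, and 435 bp of the third, or 53.3%. At DEP1 they were 170 bp of the first block (16411503 to 16411672), or 89.9%, and 976 bp of the second, or 88.6%. The share was thus higher in both DEP1 blocks than in the 3 GRF4 blocks.

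Set against the other 194 merged regions held by all 3 samples, the GRF4 blocks and the second DEP1 block took high places by score and lower ones by agreement of limits. By mean percentile of the best region they took places 5, 7 and 14 for GRF4 and 10 for the second DEP1 block among 199, while the first DEP1 block took place 170. By share of bases in common they took places 151, 141 and 192 for GRF4 and 124 and 129 for DEP1. Many of the others lie in dense loci, chains of 10 or more merged regions with gaps of up to 20 kb, where the limits coincide to a median of 1 bp at the start and the median share in common is 99.1%. The places by share in common are counted with these 121 regions. The 73 other regions outside dense loci had a median share in common of 81.7% (quartiles 67.0 and 97.3%). The second GRF4 block and both DEP1 blocks were above that median, and the first and the third GRF4 blocks were below it. Among the 10 of these regions with a mean best percentile of at least 90, the median share was 94.5% (quartiles 85.1 and 97.9%). All 3 shared GRF4 blocks were below the lower of these quartiles. The second DEP1 block lay between that quartile and the median of 94.5%. The median start spread of those 73 regions was 27 bp (quartiles 4 and 84 bp). The start spreads of all 3 shared GRF4 blocks (35, 68 and 89 bp) and of the second DEP1 block (81 bp) were above 27 bp, and that of the first DEP1 block (9 bp) was below it. The median end spread of the same 73 regions was 43 bp (quartiles 2 and 76 bp). The end spreads of the shared GRF4 blocks (52, 53 and 271 bp) were above 43 bp. Those of the first and second DEP1 blocks (10 and 11 bp) were below it. The rank by score is in part what chose the windows and is a description.

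**Figure D4:**
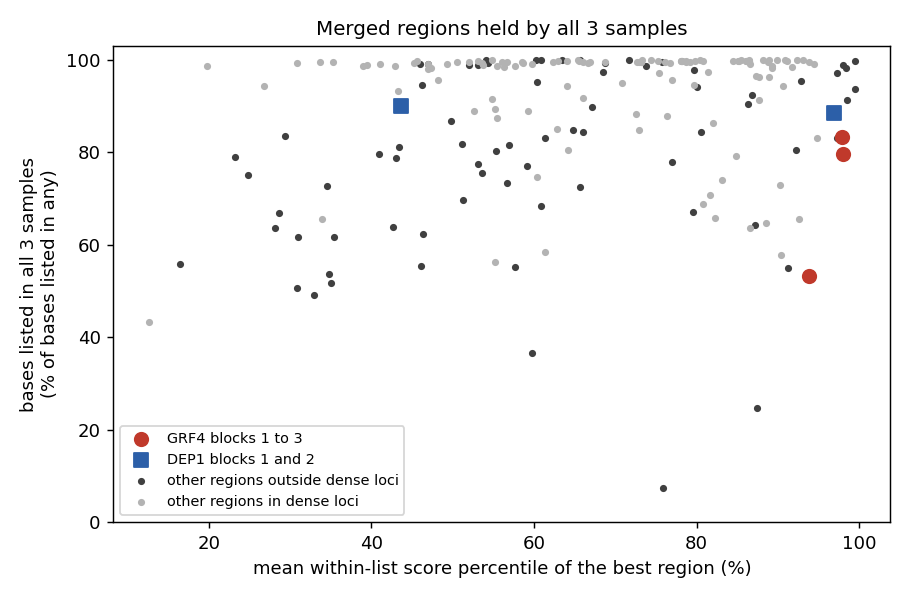
Share of bases listed in all 3 samples (% of bases listed in any) against the mean within-list score percentile of the best region (%), for the 199 merged regions held by all 3 samples. GRF4 blocks (circles) lie at 53.3 to 83.3% and DEP1 blocks (squares) at 88.6 and 89.9%, below many regions of the dense loci (light dots).

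Of the 18 regions, 14 were longer than the median region of their own list and 4 were shorter. Regions of the first and second GRF4 blocks were 1.47 to 2.27 times the median length of their own list, and the unsplit regions of the second DEP1 block 3.36 and 4.14 times. The regions of the first DEP1 block were 0.534 to 0.730 times that median. The right-hand part of the third GRF4 block in replicate 2, where it was split, was also below it, at 0.661 times. The chromatin was sheared to about 500 bp on average, per the labels' protocols, and fragments between 100 and 500 bp were taken for the libraries.

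The windows held no listed region beyond these blocks, and the nearest ones outside them lay 56.3 kb or more away. The nearest listed region to the left of the GRF4 peaks was 1190, 86.7 and 142 kb away in replicates 1, 2 and 3, a different region in each list, with scores of 88.9, 51.0 and 70.5. The nearest to the right was at least 3.65 Mb away and scored 3100, 3100 and 238, so in replicate 1 it stood above every GRF4 block and in replicate 2 it was tied with the first and the second. To the left of DEP1 all 3 lists held a region 56.3 to 56.4 kb away, near 16354780, with scores of 74.4, 66.9 and 57.1. To its right the nearest was 977 kb away in replicates 1 and 2 and 3.38 Mb in replicate 3, with scores of 63.9, 80.6 and 130. These are the first regions outside the windows.

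Other loci outside the dense ones also held several shared regions. Of 432 loci with under 10 merged regions, 53 held at least 1 region listed in all 3 samples, 15 held at least 2, as DEP1 does, and 6 held at least 3, as GRF4 does. Most of the 432 consist of 1 merged region and could not hold 2 or 3 shared ones. The counts are therefore no measure of how unusual GRF4 and DEP1 are. Regions at GRF4 made up 0.768 ± 0.239% and those at DEP1 0.548 ± 0.0680% of the bases of a list (SD, n = 3 each).

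The lists do not tell where the immunoprecipitated DNA of the GRF4 blocks came from. The seedlings carry GRF4 sequence at its own place on chromosome 2 and again in the Flag-ngr2 transgene, and reads from either copy could be aligned to GRF4. Binding at the gene and DNA of the transgene cannot be told apart in these lists. The positions of the blocks relative to exons were not analysed here, and neither was the sequence of the vector. The labels name no DEP1 sequence in the transgene. Whether the altered dep1-1 sequence has a part in the limits of the DEP1 blocks was not tested.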

How the data were processed

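Anti-Flag ChIP-seq of 3 samples of 1 genotype was used. The authors deposited 1 list per sample with a position, a name and a score for each peak. The word MACS, a peak caller, stands in the deposited names. Not given in the sources used here are the caller's version and settings, the control, the aligner, the read filters and the build, so depth is unknown. The deposited score has no stated unit. It runs from 50.02 to 3100, was used to rank regions within a list, and a threshold on it shapes which regions are listed.

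The members, windows and choices were set with earlier results of these lists known. Every region in the windows is reported. Starts were made 1-based, regions overlapping by at least 1 bp were merged, and percentiles are mid-ranks. Replicates were numbered in the order of the records. No test was run, since the samples form 1 group. The merging was tested on 20 simulated sets of 200 regions. The simulated regions lay far apart, so split regions and close blocks like those here were not tried. The planned placement on gene models, the GRF, GIF and G protein gene lists, and the motif search were not analysed here, as no sequence or annotation of the build was used. Python 3.11.15, NumPy 2.4.6, pandas 2.3.3 and Matplotlib 3.10.9 were used.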

Additional observations from a re-analysis of the deposited data

How the results depend on the processing

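Of 68 values recomputed under other settings, 62 stayed within 1 SD of the reported value or, for counts, within 1.5 times it. Many of the 62 could not have moved, so this share is no measure of stability. Windows 5 kb wider or narrower on each side gave identical values. All blocks lie inside the narrower windows, and the wider ones hold no further region. A block held by all 3 samples stays shared when 1 sample is left out. With only the regions above the median score kept, percentiles were still those of the full lists. With only the regions above the median score of their list, the bases covered at DEP1 became 1112 bp, its blocks held by all samples 1 and its mean Jaccard index 0.838 (0.787 at GRF4), because the short block drops out of replicates 1 and 3. With the score divided by length, the mean percentile of the best DEP1 region became 90.6, since the best-scoring regions of its second block are long. A reciprocal overlap of 50% left 2 of the 3 shared GRF4 blocks, a change that still counted as within 1.5 times. Joining regions over gaps of up to 500 bp kept 3 at GRF4 and 2 at DEP1. The gaps between the second and the third GRF4 blocks were 510, 546 and 507 bp in replicates 1, 2 and 3. They barely exceed 500 bp, so the 3 at GRF4 depends on where that setting was placed. Leaving out 1 replicate leaves 1 pair of samples, so the Jaccard index is then a pair value already given above. These values run from 0.645 to 0.854 at GRF4 and from 0.891 to 0.953 at DEP1. The score per base and the medians compare regions within a list only. No paired analysis was possible because there is 1 group. Since depth is unknown, no region can be said to be absent.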
